A study of Mus musculus with 2 samples.

Results

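The genes that encode the chains of the collagens were described in chromatin accessibility data from mouse urinary bladder. The members are the protein-coding genes of the GENCODE M21 annotation, placed on GRCm38.p6 (the mm10 assembly), whose symbol is Col, a number, the letter a and a number. This gave 44 genes of 21853 protein-coding genes. Accessibility was measured by DNase-seq, in which the enzyme DNase I cuts DNA that nucleosomes leave free, in bladder tissue of adult female B6CASTF1/J mice at 18 to 20 months of age. There was 1 group of 2 libraries, labelled biological replicates 1 and 2, from separate tissue samples under 1 donor record, with no treatment and no second genotype. How many animals gave the tissue is not stated, which leaves it unknown whether the spread of the libraries is technical or biological, and with 1 group no test between groups was possible.

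Collagens are triple helices of alpha chains, and each kind of chain is the product of its own gene. Fibrillar collagens form the tensile fibrils of connective tissue, fibril-associated collagens coat them, type IV collagens form the sheet of basement membranes, and type VI forms beaded filaments around cells. In the bladder wall, collagen made mostly by fibroblasts and smooth muscle cells lies under the urothelium, which is the lining epithelium, and between the muscle bundles, and it sets how far the wall stretches. Open chromatin at a promoter is usual for a gene in use but does not measure its RNA.

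The longer deposited peak list was used, with 84591 peaks in replicate 1 and 112174 in replicate 2, and median peak signals of 0.819 and 0.760. The signal was a whole multiple of 1 step per library for 100% of peaks, within a tolerance of 0.02 steps, and the median peak held 96 and 86 steps. The scaling behind the step is not stated, so total depth is unknown. Of 12 urothelial markers replicate 1 showed 12 with a promoter peak and replicate 2 showed 11, of 9 smooth muscle markers 9 and 6, of 9 fibroblast markers 8 and 7, and of 7 endothelial markers 4 and 4, beside shares of 64.1% and 66.4% over all protein-coding genes. Of 7 hepatocyte markers 1 had a promoter peak in each library, and Alb, the albumin gene, had none. In whole tissue, fewer cells of a type and less open chromatin per cell cannot be told apart.

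A promoter peak is a peak within 1 kb of any annotated transcription start site (TSS) of a protein-coding transcript. Of the 44 collagen genes, 30 were called in replicate 1 (68.2%) and 31 in replicate 2 (70.5%). The shares over all protein-coding genes were 64.1% in replicate 1 and 66.4% in replicate 2. The mean share was 69.3% ± 1.61 (SD, n = 2) for collagen genes and 65.3% ± 1.61 for all genes. In both libraries 28 collagen genes had a promoter peak (63.6%), against 63.0% of all genes, and in neither library 11 had one (25%), against 32.5%. With the longer list, the share of open collagen promoters was near that of genes at large, without regard to gene length. Among genes 50 to 200 kb long, 15 of 21 collagen genes had a promoter peak in both libraries (71.4%), against 81.8% of 3990. The share over all 44 was lower than that of genes at large once weak peaks were left out. When each library was held to its 42295 strongest peaks, 17 of the 44 kept the call in both libraries, against 54.9% of all genes. With a shorter deposited list 21 of the 44 kept it, against 58.3%.

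The height of the peaks differed more than their presence. The strongest promoter peak of each collagen gene had a median signal of 1.10 in replicate 1 (30 genes) and 1.26 in replicate 2 (31 genes). Over all genes with a promoter peak the medians were 3.27 and 3.42. Only Col6a2 and Col16a1 lay above the all-gene median in replicate 1, and only these and Col1a1 in replicate 2. In contrast, 11 of the 30 and 13 of the 31 lay below the median of all peaks in the library, promoter or not. The plot of promoter signal shows each gene by class.

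**Figure D1:**
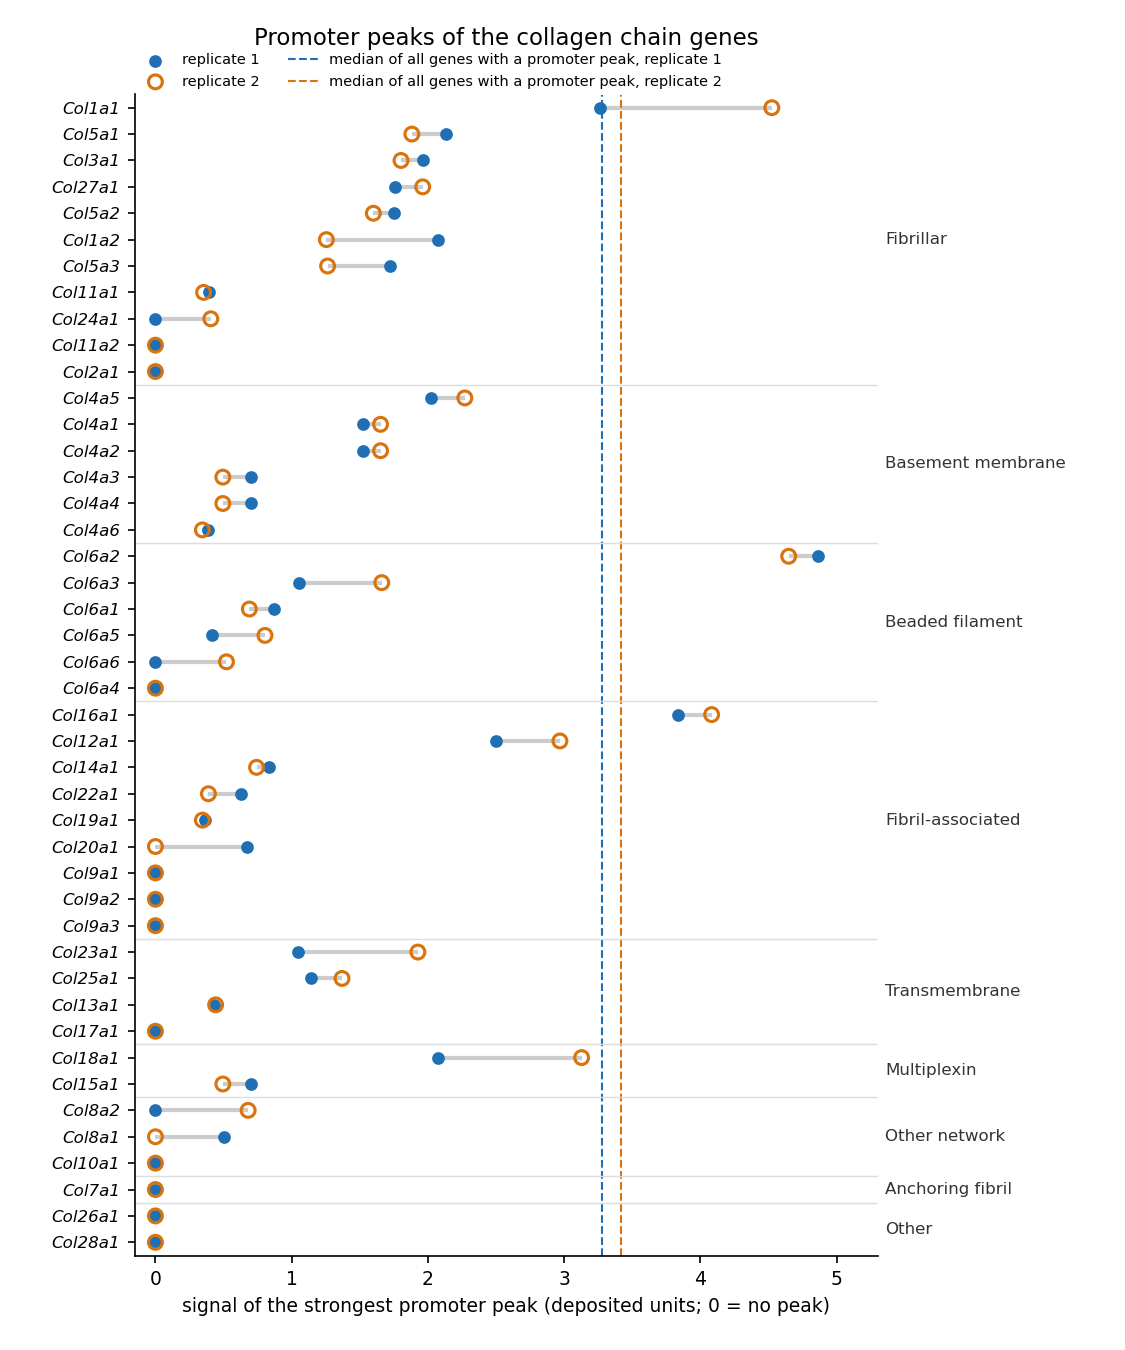
Signal of the strongest promoter peak of each of the 44 collagen genes (x axis, deposited units, 0 where there is no peak), grouped by collagen class, with replicate 1 as filled blue points, replicate 2 as open orange circles and dashed lines at the medians of all genes with a promoter peak. Apart from Col6a2, Col16a1 and Col1a1, every collagen gene lies to the left of both lines in both libraries.

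Among the 11 fibrillar genes, 8 had a promoter peak in both libraries. Col1a1, which encodes the main chain of type I collagen, led them with 3.27 in replicate 1 and 4.52 in replicate 2, a mean of 3.90 ± 0.890 (SD, n = 2). Col1a2, which encodes the partner chain in the same helix, was lower in replicate 2, with 2.07 and 1.25 (1.66 ± 0.578). These Col1a1 values come from a region in its first intron. The region at the Col1a1 TSS was also lower in replicate 2, at 2.84 and 2.29. Both libraries put Col1a1 above Col1a2, so the order of these partners did not depend on the library. The chains of types III and V, which join type I in its fibrils or set their diameter, lay close together. Col5a1 had 2.13 and 1.88 (2.01 ± 0.176), and Col3a1 had 1.96 and 1.80 (1.88 ± 0.112). Col5a2 had 1.75 and 1.60 (1.67 ± 0.105), and Col5a3 had 1.72 and 1.26. Col5a1 lay above Col3a1 in each library, though their ranges overlapped, and Col5a2 lay below both in each. Col27a1, a fibrillar gene known from growth cartilage, had 1.76 and 1.96 (1.86 ± 0.145).

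Other fibrillar genes known from cartilage had weak promoter peaks or none. Col11a1 had 0.392 and 0.353, and Col2a1 and Col11a2, the other chain genes of cartilage fibrils in the class, had no promoter peak in either library. Col24a1 had a peak in replicate 2 only, at 0.406. Beside them, of 10 other cartilage markers 5 had a promoter peak in each library and 4 in both, with summed signals of 6.30 and 8.44. The shares over all protein-coding genes were 64.1% in replicate 1, 66.4% in replicate 2 and 63.0% in both. Sox9, Matn3, Cnmd and Chad were open in both libraries, at 2.64 and 2.74 for Sox9, Acan was open in replicate 1 only, Hapln1 in replicate 2 only, and Comp, Matn1, Snorc and Ucma had no promoter peak. Of 8 bone markers 2 had one in each library, beside the same shares of all genes. The part of any such cells in these values was not tested.

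The strongest promoter region of Col1a1 was not at its TSS. The region at the TSS (chr11:94936161-94936340, centred 27 bp downstream of the TSS) had signals of 2.84 and 2.29, whereas the one in the first intron (chr11:94937081-94937300, centred 967 bp downstream) had 3.27 and 4.52. The intronic region was the stronger in both libraries, and its signal was 1.39 times as high in replicate 2 as in replicate 1, whereas that of the TSS region was lower in replicate 2. Col1a1 lies on the plus strand of chromosome 11, and the sequences below, from mm10, are shown because the pair makes up the most open fibrillar promoter. Capitals mark bases inside a deposited footprint, a short stretch protected from cutting within an open region, in both libraries. The TSS line holds only the bases before the first exon.
Col1a1 before the TSS, chr11:94936161-94936223, plus strand: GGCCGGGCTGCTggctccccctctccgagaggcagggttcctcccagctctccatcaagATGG
Col1a1 first intron, chr11:94937081-94937300, plus strand: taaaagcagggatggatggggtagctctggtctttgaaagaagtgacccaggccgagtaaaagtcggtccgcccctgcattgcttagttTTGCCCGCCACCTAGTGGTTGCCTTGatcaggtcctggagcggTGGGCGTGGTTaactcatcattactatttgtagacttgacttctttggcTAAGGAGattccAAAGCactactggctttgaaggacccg
The longest run of capitals in the intronic line holds a match to the shortened CTCF consensus described further on, at chr11:94937177-94937187, wholly inside a footprint in both libraries. Among the promoter regions of the collagen genes found in both libraries it was the only such match.

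Col5a1 is shown as a GC-rich promoter of the class. Its strongest region began upstream of the TSS, and the 284 bases outside exons were 75.4% G or C. The 62 capitals mark footprint bases in both libraries as above.
Col5a1, chr2:27886141-27886424, plus strand: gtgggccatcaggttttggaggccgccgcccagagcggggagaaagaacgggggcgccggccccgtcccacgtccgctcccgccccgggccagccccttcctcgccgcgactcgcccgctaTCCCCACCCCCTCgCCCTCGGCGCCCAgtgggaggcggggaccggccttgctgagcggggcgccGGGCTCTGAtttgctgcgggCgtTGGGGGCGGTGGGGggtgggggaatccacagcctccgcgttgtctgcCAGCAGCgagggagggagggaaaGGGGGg
Footprints in the Col5a1 promoter numbered 9 in replicate 1 and 14 in replicate 2, against a median of 5 and 6 over all genes with a promoter peak.

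All 6 type IV genes, the chains of the basement membrane sheet, had a promoter peak in both libraries, the only class of more than 2 genes for which this held. The share over all protein-coding genes was 63.0%. With the 42295 strongest peaks of each library Col4a3, Col4a4 and Col4a6 lost the call, and with the shorter list Col4a6 did. The type IV genes lie in head-to-head pairs that are transcribed away from each other, so their promoter values are not independent. Col4a1 and Col4a2, the chains present in nearly all basement membranes, overlap by 22 bp at their starts on chromosome 8 and share a region (chr8:11312601-11312940) with signals of 1.53 and 1.65 (1.59 ± 0.0892). Col4a3 and Col4a4, chains known from kidney and other specialised basement membranes, have gene bodies that begin 71 bp apart on chromosome 1 and share a weaker region with 0.699 and 0.495. Col4a5 and Col4a6, which combine in the basement membrane of smooth muscle, start 1308 bp apart on the X chromosome and had separate peaks. Col4a5 had 2.02 and 2.27 (2.15 ± 0.177), the highest of the class, and Col4a6 0.384 and 0.345. Col4a5 was thus the higher of this pair in both libraries by far more than their spread. When peaks that lie in the promoters of more than 1 gene were left out, Col4a1 to Col4a4 lost their promoter call.

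The 2 sequences below show how close the paired starts lie and which bases of the strongest type IV promoter were protected. The first is the whole stretch between the gene bodies of Col4a4 and Col4a3, and the second the part of the Col4a5 peak outside exons, with capitals for footprints in both libraries.
Between Col4a4 and Col4a3, chr1:82586850-82586920, plus strand: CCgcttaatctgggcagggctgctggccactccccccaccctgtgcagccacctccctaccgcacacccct
Col4a5, chrX:141475261-141475384, plus strand: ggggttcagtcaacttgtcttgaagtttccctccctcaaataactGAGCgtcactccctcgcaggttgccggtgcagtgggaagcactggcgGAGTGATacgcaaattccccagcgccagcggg
The stretch between Col4a4 and Col4a3 holds 2 footprint bases and the Col4a5 stretch 11.

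Among the 6 type VI genes, which form beaded filaments, 4 had a promoter peak in both libraries. Col6a2 had the strongest promoter of all collagen genes, with 4.86 and 4.65 (4.75 ± 0.150). Col6a1 and Col6a3, whose products assemble with that of Col6a2 into the common type VI helix, were far lower, at 0.870 and 0.689 for Col6a1 and 1.06 and 1.66 for Col6a3. The 3 partner genes thus differed in both libraries, with no overlap between Col6a2 and the others. Of the later-described chains, Col6a5 had 0.418 and 0.804, Col6a6 had 0.521 in replicate 2 only, and Col6a4 had none.

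Of the 9 fibril-associated genes, 5 had a promoter peak in both libraries. Col16a1 led with 3.84 and 4.08 (3.96 ± 0.174), and Col12a1, whose product binds type I fibrils, followed with 2.50 and 2.97 (2.73 ± 0.333). Their ranges did not overlap. Col14a1, of the same kind, had 0.836 and 0.742, Col22a1, known from tissue junctions of muscle, had 0.631 and 0.389, and Col19a1 had 0.367 and 0.345. The 3 type IX genes Col9a1, Col9a2 and Col9a3, partners of type II collagen in cartilage, had no promoter peak, and Col20a1 had one of 0.674 in replicate 1 only. The bases of the Col16a1 peak before its first exon are shown as those of the strongest promoter of the class, with capitals as before.
Col16a1, chr4:130047721-130047839, plus strand: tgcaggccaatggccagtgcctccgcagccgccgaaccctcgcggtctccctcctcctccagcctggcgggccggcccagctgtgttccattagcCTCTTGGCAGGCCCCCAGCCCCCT
The 24 capitals all lie next to the exon, in the last part of the line.

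Both multiplexins, basement membrane collagens that carry sugar chains, were open in both libraries: Col18a1, the source of endostatin, had 2.07 and 3.13 (2.60 ± 0.747), and Col15a1 0.699 and 0.495. For Col15a1 the peaks of the libraries lay at different TSSs, so no region was shared, and it is the exception among the 28 genes, of which 27 had the same region open in both libraries. Of these 27, 25 had such a region within 250 bp of a TSS. For Col19a1, Col4a6 and Col14a1 the strongest peaks given above lay in different regions in the libraries. The strongest regions they shared had 0.298 and 0.309 (Col19a1), 0.384 and 0.318 (Col4a6) and 0.836 and 0.716 (Col14a1). Of the 4 transmembrane genes, Col23a1 had 1.05 and 1.93, Col25a1 1.14 and 1.37, and Col13a1 0.426 and 0.442. The other transmembrane gene, Col17a1, which encodes a hemidesmosome protein of stratified epithelia, had no promoter peak, nor did Col7a1, the anchoring fibril collagen that ties such epithelia to the stroma. The short network chains Col8a1 and Col8a2 had peaks in 1 library each, 0.503 in replicate 1 and 0.680 in replicate 2. Col10a1, of hypertrophic cartilage, and the unclassed Col26a1 and Col28a1 had none.

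Col18a1 is known to be transcribed from alternative promoters, and its 5 annotated starts fall into 4 separate promoter windows, of which 3 had a peak in both libraries. The window of the most upstream start had 1.17 and 0.786, the next 2.07 and 3.13, and the third 1.43 and 1.62. The most downstream start had none. The middle one was the strongest in both libraries, and the stretch of it that lies outside exons is shown with capitals for footprints in both libraries.
Col18a1, chr10:77113947-77114140, minus strand: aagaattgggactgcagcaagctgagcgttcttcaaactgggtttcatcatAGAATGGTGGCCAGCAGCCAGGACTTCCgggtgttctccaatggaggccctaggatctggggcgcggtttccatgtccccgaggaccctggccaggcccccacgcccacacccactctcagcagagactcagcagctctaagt

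The 11 genes without a promoter peak also lacked shorter stretches of enriched cutting. No stretch with a deposited false discovery rate of the cut rate under 0.05 lay in any of their promoters in either library. Among all genes without a promoter peak, 1.24% had such a stretch in replicate 1 and 1.84% in replicate 2. Stretches and peaks come from the same libraries, and nearly all genes without a peak lack a stretch. The lack in these 11 is thus no separate evidence. Among genes called in both libraries, the strongest peak of Col19a1 was the weakest in replicate 1, with 43 steps. In replicate 2 those of Col19a1 and Col4a6 were the weakest, with 39 steps each. The strongest peaks of Col19a1 lay in different regions in the libraries. Those of Col6a2 held 570 and 526. Calls at the low end rest on few steps.

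Deposited footprints lay in the promoter in both libraries for 25 of the 28 collagen genes with a promoter peak in both (89.3%), against 96.1% of all such genes. The median number of footprints per promoter was 3 and 4 for collagen genes and 5 and 6 for all genes. Col18a1, with 3 open windows, had 11 and 9. The exceptions were Col6a1, Col13a1 and Col19a1, which had a footprint in 1 library at most.

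The gap between CpG-poor and CpG-rich promoters was narrower for collagen genes than for genes at large, a difference that was not tested. The CpG ratio is the number of CG pairs over that expected from the base content, here from 250 bases before to 50 after the first TSS. Of 32 collagen genes with a ratio of at most 0.6, 18 had a promoter peak in both libraries (56.3%), against 38.3% of all 11959 such genes. Of 12 with a higher ratio, 10 had one (83.3%), against 92.9% of 9894. Within the low group the median promoter signal was 0.853 and 0.773 for collagen genes and 1.88 and 1.87 for all. Among genes 50 to 200 kb long the medians were 1.29 and 1.63 for collagen genes and 3.0 and 3.03 for all.

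Short motifs were counted on both strands in 300 bases centred on the strongest promoter peak, for the 33 collagen genes with a peak in either library and for all 14749 such genes. The peak was that of replicate 1, or of replicate 2 where replicate 1 had none. Col4a1 and Col4a2 have the same window, as do Col4a3 and Col4a4, and each gene was counted. The CCAAT box (CCAAT) was present in 33.3% and 37.4%, and the GC box (GGGCGG) in 57.6% and 68.1%. The ETS site (CCGGAAG) was present in 1 collagen gene, Col18a1 (3.03%), against 17.7% of all. The RUNX site (TGTGGT) was present in 3.03% and 10.9%, and the SOX site (ACAAAG) in 18.2% and 10.7%. The TATA box (TATAAA) was present in Col1a2 and Col14a1 (6.06%), against 4.36%. With 33 genes, 1 gene is 3.03%, and a match is only a match of letters.

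Away from promoters, collagen loci held slightly more peaks per length than all genes by the median, an order that turned with wider flanks. A locus is a gene body extended by 10 kb at each end, and density counts peaks outside promoters per 10 kb. The median density was 0.304 in replicate 1 and 0.452 in replicate 2 over the 44 collagen genes, and 0.223 and 0.355 over all genes. In both libraries 41 of the 44 loci held at least 1 such peak (93.2%), against 59.6% of all loci. Collagen genes are long, with a median of 114 kb against 17.4 kb, which bears on this share. For genes of 50 to 200 kb the median density over both libraries was 0.372 for 21 collagen genes and 0.335 for 3990 genes. With 50 kb at each end the medians were 0.341 for collagen genes and 0.353 for all, so the order turned. The 3 loci without such a peak in both libraries were those of Col9a1, Col9a3 and Col11a1.

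The 6 densest loci came from 4 classes. Col4a2 had 1.28 peaks per 10 kb in replicate 1 and 1.85 in replicate 2 (1.57 ± 0.407, SD, n = 2). Col1a1 had 1.36 in each library, and Col6a1 1.34 in each. Col6a3 had 1.02 and 1.22 (1.12 ± 0.144), Col15a1 0.880 and 1.36 (1.12 ± 0.339), and Col5a3 0.769 and 1.38 (1.08 ± 0.435). The last 3 and Col4a2 were higher in replicate 2, which held more peaks in all. Col6a1, whose own promoter peak was weak, had 5 peaks between 2393 and 9053 bp upstream of its start, all present in both libraries, the strongest by the mean at 1.77 and 2.77, though another led in replicate 1 at 2.28.

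**Figure D2:**
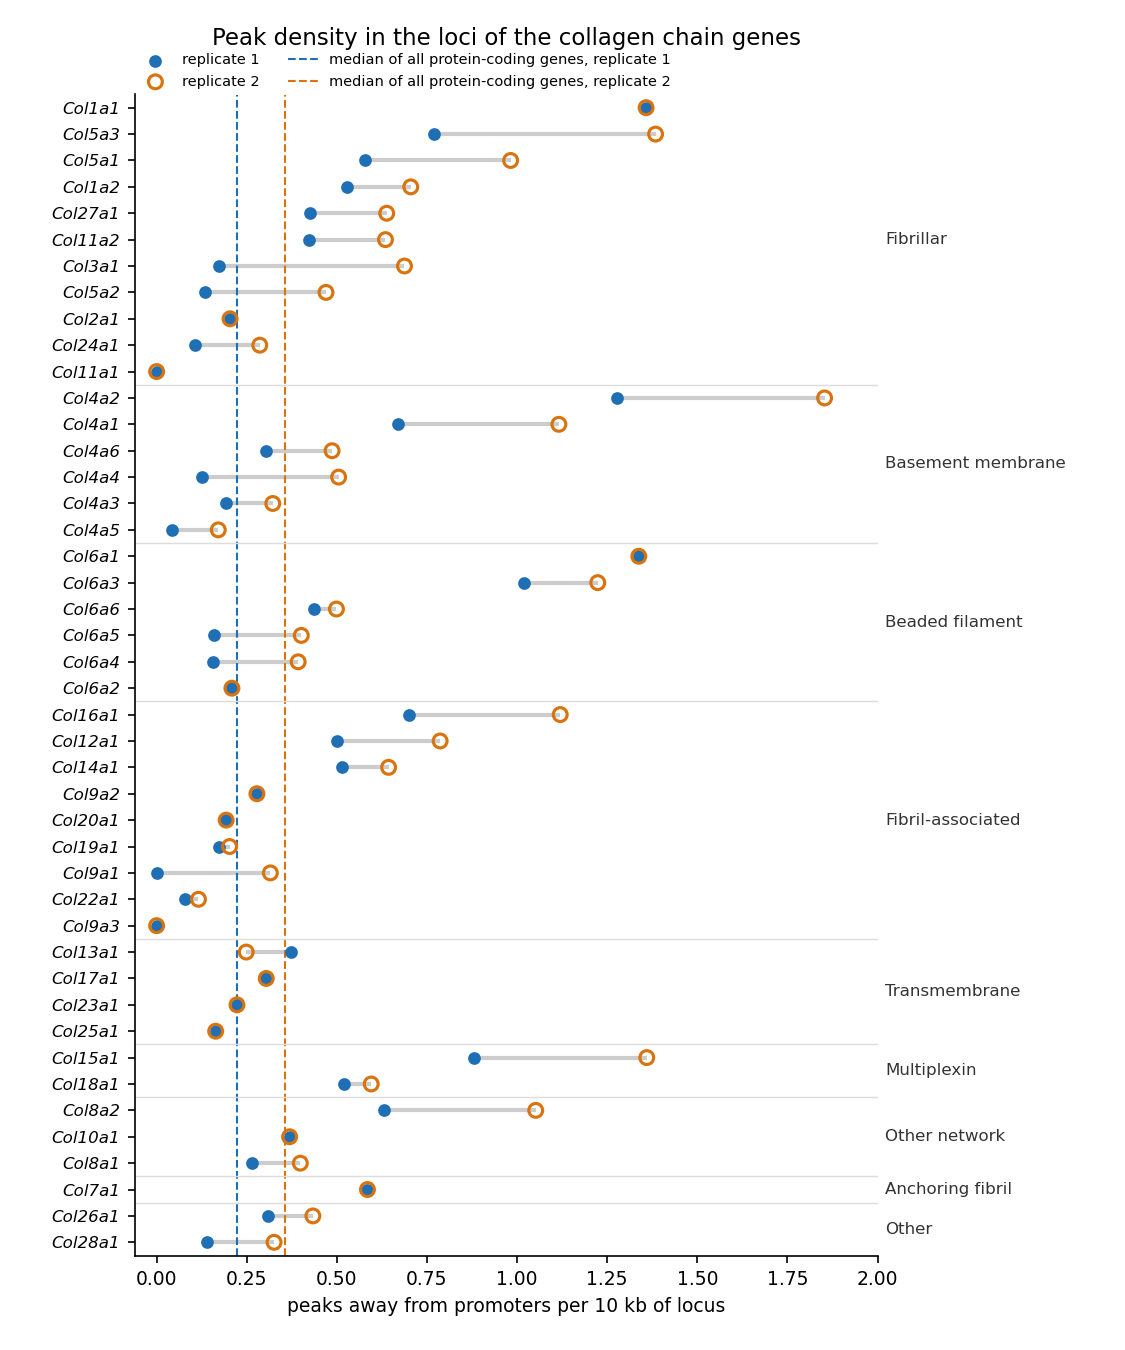
Peaks away from promoters per 10 kb of locus (x axis) for the 44 collagen genes by class, in replicate 1 (filled blue) and replicate 2 (open orange), with dashed lines at the medians of all protein-coding genes. Col4a2, Col1a1 and Col6a1 lie farthest right, and Col9a3 and Col11a1 are at 0 in both libraries.

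Summed over all peaks of the locus, signal was highest at Col4a2, with 24.7 and 31.8 (28.3 ± 5.0). Col16a1 had 20.7 and 29.1 (24.9 ± 5.90), Col23a1 18.2 and 24.8 (21.5 ± 4.72) and Col5a1 18.2 and 23.9 (21.1 ± 4.08). Col15a1 had 16.8 and 23.2 (20.0 ± 4.50), and Col18a1 16.1 and 19.8 (18.0 ± 2.64). The ranges of neighbours in this order overlap. Peaks in the promoter of Pef1 made up 44.3% and 39.5% of the sum at Col16a1, and those of Phykpl 48.6% and 32.5% at Col23a1. With peaks in promoters of other genes left out, Col16a1 had 11.5 and 17.6 and Col23a1 9.33 and 16.8, and the 6 highest means were those of Col4a2, Col5a1, Col15a1, Col18a1, Col4a1 (12.8 and 21) and Col1a1 (15.4 and 15.9). Such peaks lay in 9 of the 44 loci in replicate 1 and 10 in replicate 2.

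Genes without a promoter peak could still hold open regions. Col17a1 had a region 7847 bp upstream of its start (1.20 and 1.28) and an intronic one 33013 bp downstream (1.37 and 1.91). The Col7a1 locus held a region at 1.64 and 0.972 in an intron of the neighbouring Uqcrc1. Col2a1 had an intronic region 11576 bp from its start at 1.58 and 2.25. The gene on which each of these acts was not tested.

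**Figure D3:**
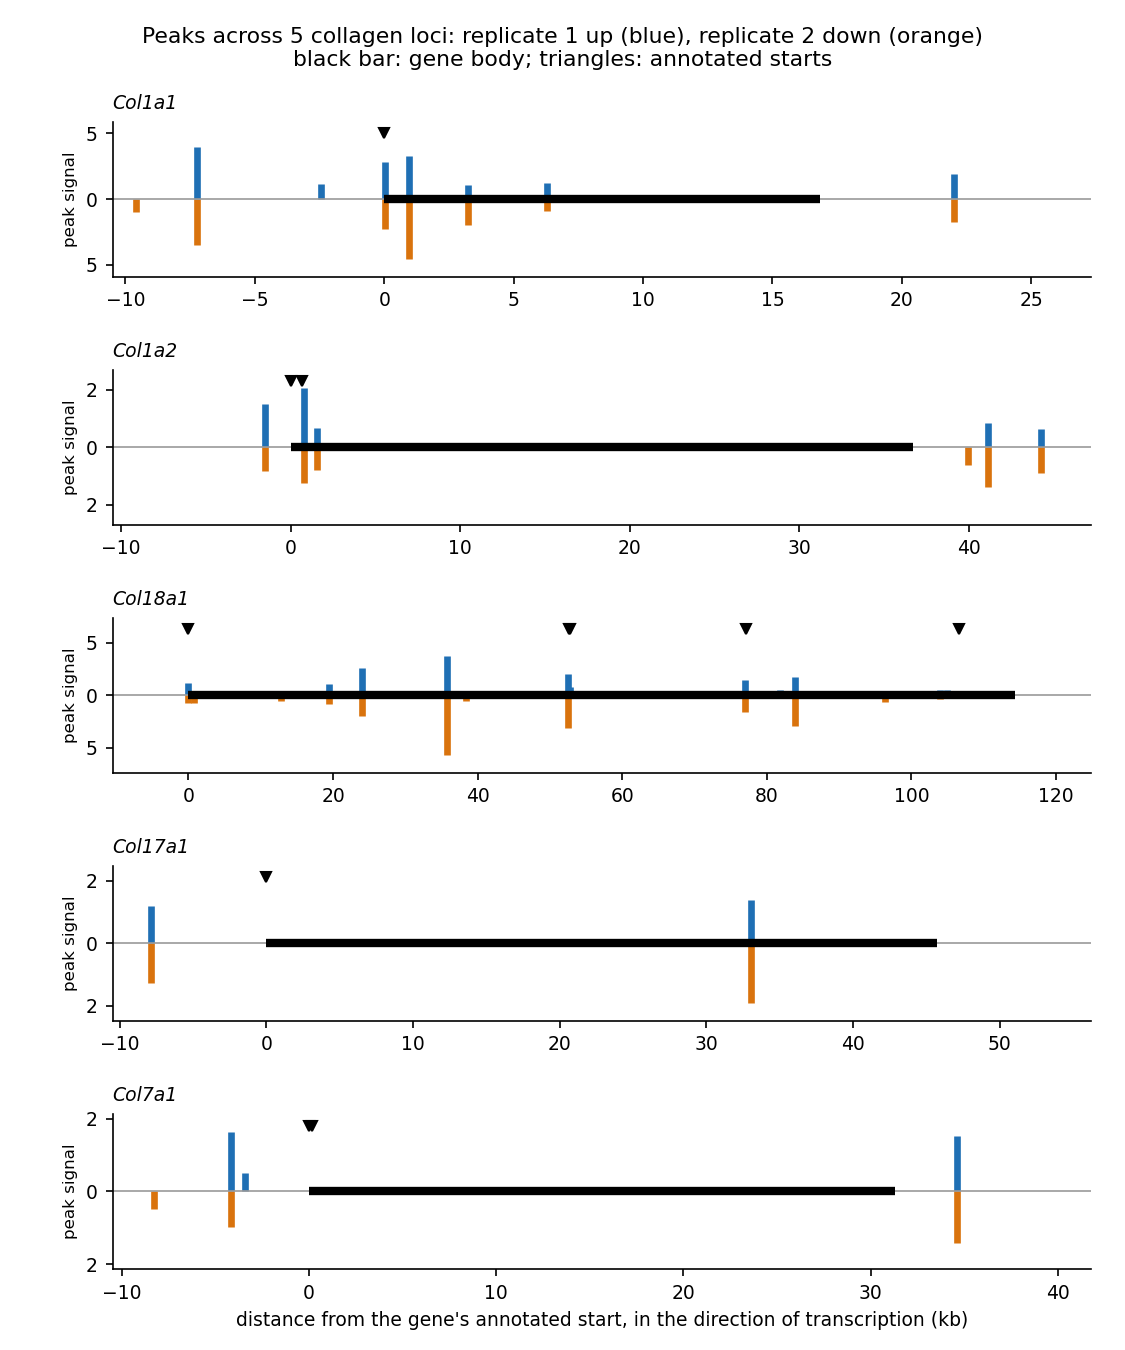
Peaks across the loci of Col1a1, Col1a2, Col18a1, Col17a1 and Col7a1 by distance from the annotated start in kb (x axis), with peak signal of replicate 1 drawn upward in blue and of replicate 2 downward in orange, the gene body as a black bar and annotated starts as triangles. Col1a1 has peaks at the start, in the first intron and 7233 bp upstream, while Col17a1 and Col7a1 have none at their starts. Peaks that lie only in promoters of other genes are not drawn. At Col7a1 those of Pfkfb4 made up 64.3% and 72.4% of the summed locus signal.

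In all, 325 regions away from promoters lay in collagen loci: 179 were open in both libraries, 24 in replicate 1 only and 122 in replicate 2 only. Replicate 2 held more peaks over the genome (112174 against 84591). Neither this split nor the counts by feature and footprint below were made over all loci. Of the 179 shared regions, 148 lay in introns, 24 between genes, 6 in coding exons and 1 in an untranslated exon, and 152 held a footprint in both libraries. Their median signal of 0.899 was close to the 0.911 of all 48647 shared regions away from promoters. Among starts of protein-coding genes alone, the nearest was that of a collagen gene for 138 of them.

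By the mean of the libraries, the strongest was an intronic region of Col18a1 (chr10:77130641-77130860), at 3.79 and 5.70 (4.75 ± 1.35). Next came an intron of Col23a1 (chr11:51539721-51539940), at 3.10 and 6.06 (4.58 ± 2.10), an intron of Col16a1 (chr4:130087441-130087640), at 2.80 and 5.47 (4.13 ± 1.89), and a region 1523 bp upstream of Col13a1 (chr10:61980541-61980720), at 2.40 and 5.51 (3.95 ± 2.19). All 4 were higher in replicate 2, by 1.5-fold to 2.29-fold. The fifth, 7233 bp upstream of Col1a1 between genes (chr11:94928841-94929140), was lower in replicate 2, at 3.97 and 3.46 (3.72 ± 0.360). It was the highest of all in replicate 1, and the Col23a1 intron in replicate 2. It and the intronic region both had a higher signal than the Col1a1 TSS region in each library. The other 5 of the 10 strongest were introns of Col8a2 (1.99 and 3.78), Col15a1 (2.69 and 2.98), Col5a1 (2.63 and 3.0), Col26a1 (2.13 and 3.49) and Col16a1 (2.34 and 3.15).

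The consensus of CTCF, the zinc finger protein that anchors chromatin loops, matched 4 of these 10 regions, at Col18a1, Col23a1, Col13a1 and Col26a1. The consensus was shortened to 11 letters after the data were seen, and the 12-letter form matched 2 of the 10, at Col13a1 and Col26a1. The sequences of the Col18a1 and Col13a1 regions are shown on the strand of the gene because they carry matches, in capitals, and the region upstream of Col1a1 as the one highest in replicate 1, with capitals there for footprints in both libraries.
Col18a1 intron, chr10:77130641-77130860, minus strand: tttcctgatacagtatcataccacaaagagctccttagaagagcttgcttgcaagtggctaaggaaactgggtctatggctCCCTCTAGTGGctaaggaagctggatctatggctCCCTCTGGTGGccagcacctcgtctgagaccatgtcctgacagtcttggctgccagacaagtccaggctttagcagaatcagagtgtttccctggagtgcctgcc
Col13a1 upstream, chr10:61980541-61980720, minus strand: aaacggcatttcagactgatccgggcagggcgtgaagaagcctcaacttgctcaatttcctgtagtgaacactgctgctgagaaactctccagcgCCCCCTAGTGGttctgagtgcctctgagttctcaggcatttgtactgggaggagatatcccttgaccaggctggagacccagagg
Col1a1 upstream, chr11:94928841-94929140, plus strand: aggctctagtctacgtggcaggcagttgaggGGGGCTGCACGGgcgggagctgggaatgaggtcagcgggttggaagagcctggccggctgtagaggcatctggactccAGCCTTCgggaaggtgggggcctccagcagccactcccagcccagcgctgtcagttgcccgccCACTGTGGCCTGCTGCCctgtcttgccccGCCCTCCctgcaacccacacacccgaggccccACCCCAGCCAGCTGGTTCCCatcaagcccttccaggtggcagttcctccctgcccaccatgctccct
The Col18a1 region holds 2 matches in a row and the Col13a1 region 1. Regions without a match also differed between libraries: those at Col16a1 and Col8a2 were 1.96-fold and 1.90-fold higher in replicate 2, more than the Col18a1 region.

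Over the 179 shared regions, 22 held a CTCF match (12.3%), against 11% of all shared regions away from promoters. All 22 were higher in replicate 2, with a median log2 ratio of 0.91, and 9 were more than 2-fold higher. The 12-letter form matched 12, all higher in replicate 2, with a median of 0.94. The 157 without a match to the 11-letter form had a median of 0.10, with 94 higher in replicate 2. Over all 5336 shared regions with a match the median was 0.82 and 96.3% were higher, and over the 43311 without a match it was 0.13 and 60.9%. The collagen regions thus followed the same split as regions at large, and CTCF was taken up here because it had already stood out between these libraries. The motif's part in the difference between the libraries was not tested.

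**Figure D4:**
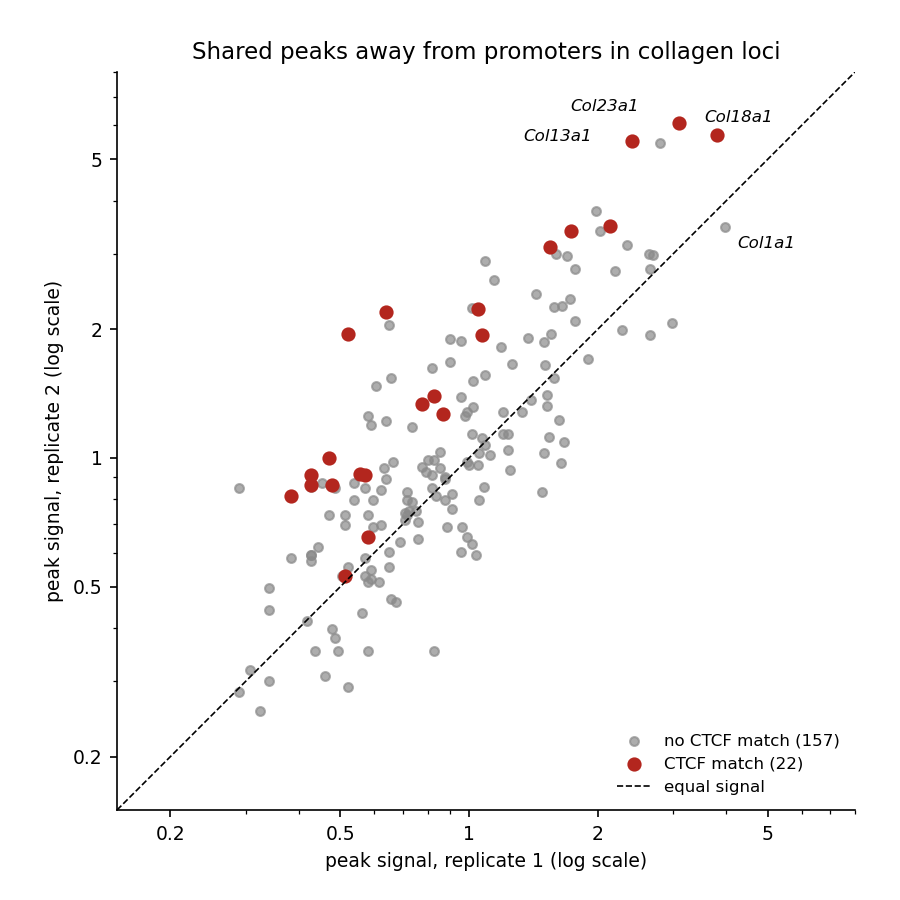
Signal in replicate 1 (x axis) and replicate 2 (y axis), both on log scales, of the 179 regions away from promoters in collagen loci that were open in both libraries, with the 22 that hold a CTCF match in red and the dashed line at equal signal. All red points lie above the line, and the region upstream of Col1a1 lies below it.

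The summed locus signal was also compared between the libraries. The log2 ratio of replicate 2 to replicate 1 was centred by subtracting 0.28, the median over the 17298 protein-coding loci that held peaks in each library. After this the collagen median was 0.18, with 31 of 43 loci above 0, and it was 0.020, with 17 of 32 above 0, when each library was held to its 42295 strongest peaks. With promoter peaks only, 18 of 32 were above 0. More than 2-fold higher in replicate 2 were 4 of 43, against 4.05% of all loci, and more than 2-fold lower was 1 of 43, against 0.676%. With 1 library on each side these are descriptions without a test. The 4 were Col6a4 (1.56), Col24a1 (1.39), Col4a4 (1.27) and Col6a5 (1.09), followed by Col28a1 (0.88), each with a locus signal under 2 in replicate 1. The 5 lowest were Col20a1 (-1.22), Col11a1 (-0.43), Col10a1 (-0.39), Col6a2 (-0.35) and Col11a2 (-0.27). Peaks in promoters of Rxrb and Slc39a7 made up 89.2% and 70.4% of the Col11a2 sum, and without them its centred ratio turned to 1.15. Without peaks in promoters of other genes, and centred on 0.31, 5 of 42 loci were more than 2-fold higher and 1 lower. The share over all loci was not counted under this setting. With all peaks kept, the 6 loci with the highest summed signal lay between 0.02 (Col18a1) and 0.20 (Col16a1).

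**Figure D5:**
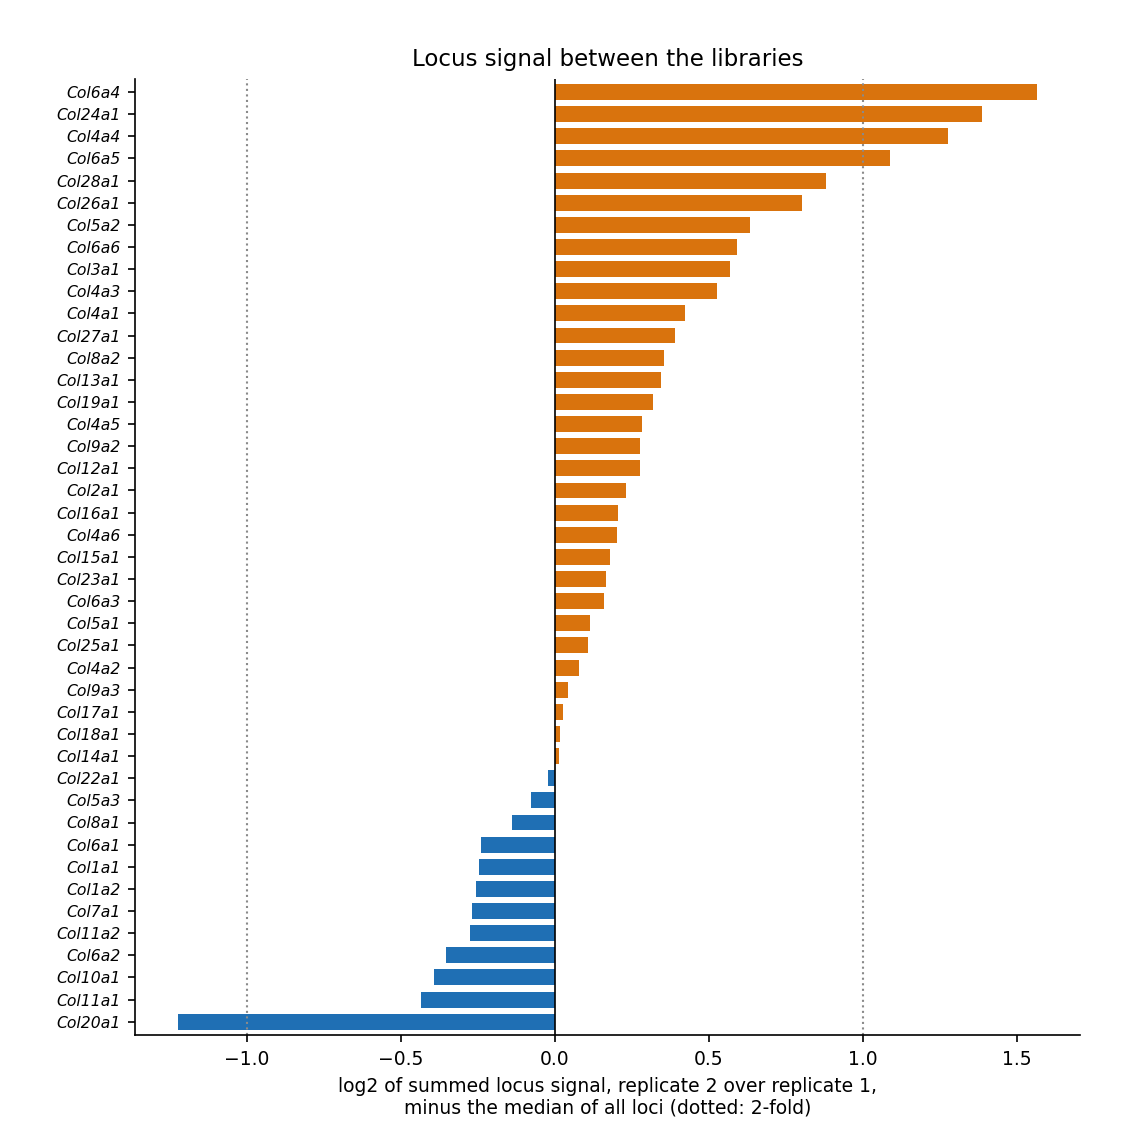
Centred log2 ratio of summed locus signal, replicate 2 over replicate 1 (x axis), for the 43 collagen loci with a peak in both libraries, sorted, with dotted lines at 2-fold. Col6a4, Col24a1, Col4a4 and Col6a5 pass the upper line and Col20a1 the lower.

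Genes that modify, export, cleave, crosslink, bind or break down collagen were listed beside the chains. Of 55 genes listed by textbook role, 54 were found in the annotation, and 48 had a promoter peak in both libraries, 48 in replicate 1 and 49 in replicate 2, beside 63.0%, 64.1% and 66.4% of all protein-coding genes. The 8 strongest promoters were the following. P4hb, a subunit of prolyl 4-hydroxylase, had 11.7 and 10.2, P3h1, a prolyl 3-hydroxylase, 7.71 and 9.14, and P4ha1, the catalytic prolyl 4-hydroxylase subunit, 8.99 and 7.79. Sec23a, a coat protein of the vesicles that carry procollagen, had 9.0 and 7.59. Ppib, a prolyl isomerase, had 7.74 and 6.13, Colgalt1, which adds galactose to hydroxylysine, 7.03 and 6.60, Plod3, a lysyl hydroxylase, 5.02 and 5.28, and Mia3, a procollagen export receptor, 5.18 and 4.75. All 8, picked as the highest by this same signal, exceeded every collagen promoter in both libraries, and no other pathway gene did. The medians over all genes with a promoter peak were 3.27 and 3.42. P3h1, Sec23a and Plod3 share their promoter peak with another protein-coding gene. Of the other pathway genes, Serpinh1, the collagen chaperone, had 3.44 and 3.92, and Lox, which crosslinks fibrils, 1.23 and 1.41.

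By role, a promoter peak in both libraries was present for 14 of 15 hydroxylation and glycosylation genes, 7 of 7 for folding and export, 8 of 8 for propeptide removal, 4 of 5 for crosslinking, 8 of 8 receptors and 7 of 11 for breakdown, beside the same 63.0% of all genes. The remaining hydroxylation gene, P4ha3, had one of 0.486 in replicate 2 only. The 5 genes with none were Loxl2 and the breakdown enzymes Ctsk, Mmp8, Mmp9 and Mmp13. Among receptors, Ddr1 had 4.42 and 3.07 and Itga11, the collagen-binding integrin chain of fibroblasts, 0.401 and 0.521.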

How the data were processed

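DNase-seq files of 2 urinary bladder libraries were used as deposited, on mm10 per the file listing in the labels. The names of the aligner and peak caller were not given in the sources used here. The peak signal of the longer list is the authors' deposited value. The footprint lists and the stretches of cut rate carry deposited false discovery rates on the p-value scale, used only as limits (0.05). The shorter list served as an alternative.

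Starts and gene bodies came from GENCODE M21 (54361 starts of protein-coding transcripts, 21853 genes) and sequence from GRCm38.p6, the assembly of mm10. Promoters reached 1 kb from a start and loci 10 kb beyond the gene. A gene's promoter signal is that of its strongest promoter peak. Regions were shared when peaks overlapped by at least 1 bp. Locus ratios used summed signal. Code ran in Python 3.11.15 with pandas 2.3.3, numpy 2.4.6 and pysam 0.24.0, and the counting was tested on simulated data.

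Values are means ± SD over n = 2 libraries, and no p-value was computed. The members, gene lists and motifs were chosen with earlier results of these data known. Named were all members, the 12 strongest promoters, the 6 highest loci by density and by signal, the 5 largest ratios each way, the 10 strongest shared regions and the 8 strongest pathway genes with all that had no peak. Col2a1, Col7a1 and Col17a1 regions, Serpinh1, Lox, Ddr1 and Itga11 were named after their values were seen. CTCF matches, the splits by CpG ratio and gene length, the starts of all transcripts the count of genes with the same region open, the locus sums without peaks in promoters of other genes and the 12-letter CTCF form were added after seeing the data. No paired design exists.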

Additional observations from a re-analysis of the deposited data

How the results depend on the processing

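The count of 28 of 44 collagen genes with a promoter peak in both libraries ran from 21 to 30 under most alternatives. The 21 came with the shorter list, against 58.3% of all genes, and the 30 with 2 kb windows, against 65.2%. With the 42295 strongest peaks of each library the count was 17, against 54.9% of all genes. That setting lost 11 genes, the strongest of them at 0.870. Each library alone gave 30 to 31 genes, 27 to 29 with a promoter footprint, and a median locus density of 0.304 to 0.452. The density of 0.351 became 0.226 with the shorter list and 0.214 when each peak counted only for the nearest start, above all genes at 0.139 and 0.154. With 50 kb flanks it was 0.341, against 0.353 for all genes, so the order turned, and with promoter peaks kept 0.443 against 0.674. The median locus log2 ratio of 0.18 was 0.11 with peaks shared 1 to 1, 0.057 with promoter peaks only, 0.083 without them, 0.46 not centred, 0.17 after quantile normalization, 0.020 with the strongest peaks and 0.23 without peaks in promoters of other genes (added after seeing the data), all above 0; the cause was not tested. Pathway, footprint and distal counts stayed within 1.5 times. Alternatives added after seeing the data gave 29 genes with the starts of all transcripts and 27 with the same region open in both libraries. No paired analysis was possible because there is 1 group. Total depth is unknown, and weak calls rest on few steps.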
